A study of Homo sapiens with 6 samples.

Results

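Homologous recombination and Fanconi anemia genes were examined in RNA-seq libraries of A2780, an established human line from an ovarian cancer, with and without recombinant human CRMP2 (r-CRMP2), which the study treats as a factor secreted by cancer associated fibroblasts. The members were given as 37 gene symbols of the recombination, Fanconi anemia, checkpoint and mismatch repair machinery. Of these, 36 were found among the 44591 genes listed for each library, and the other, MRE11A, was listed under its current symbol MRE11 and is given separately. There were 3 untreated cultures and 3 cultures that received 40 ng/ml r-CRMP2 in the medium for 48 h. All 6 were labelled wild type (WT) A2780 and were grown in DMEM with fetal bovine serum, so the line itself, the medium and the serum were shared by both groups, and the label gives the controls as untreated without naming a vehicle. The labels do not say whether the 3 cultures of a group were started separately, and p-values then measure only the spread between these samples.

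Homologous recombination repairs DNA breaks by copying an intact sister chromatid. The ends are recognized and trimmed, BRCA1 with its partner BARD1 and PALB2 brings BRCA2 to the trimmed end, and the matching sequence is then found and copied. The Fanconi anemia pathway handles crosslinks between DNA strands: a core complex attaches ubiquitin to FANCD2 and FANCI, and repair then runs through many of the recombination proteins. Inherited loss of BRCA1 or BRCA2 is a well known cause of ovarian cancer, and tumors without recombination are sensitive to platinum drugs and PARP inhibitors.

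The libraries held between 21888530 and 25711353 counts each. Levels are given in CPM, which are counts scaled by each library's total after that total was corrected by a TMM factor (edgeR's estimate of how the composition of a library shifts its genes). These factors lay between 1.10 and 1.12 in the untreated libraries and between 0.878 and 0.922 in the r-CRMP2 libraries. That choice matters here: the median log2 fold change of all 16222 genes tested was -0.03 with TMM and -0.34 when library size alone was used. In r-CRMP2 replicate 3, 22153 genes were at 0, against 18289 to 19439 in the other libraries, although this library had the highest total. The members had between 44 (BRCA2) and 4081 (FANCI) counts per library. All 36 members passed the filter on low counts, and none was at 0 in any library. The epithelial keratins KRT8 and KRT18 were abundant (1270 and 1250 CPM in untreated cells). KRT19 and EPCAM, also epithelial, were low at 1.4 and 4.44 CPM in untreated cells. MUC16 and PAX8 were detected at 42.7 and 4.06 CPM, whereas CDH1 and WT1 were at 0 in at least 1 library. Of the 6 markers of this list that were tested, KRT18 was higher (0.20) and MUC16 lower (-0.36), and with library size alone 0 were higher and 3 lower. Of 7 fibroblast markers all had counts, with a summed level of 478 to 548 CPM in untreated and 408 to 419 CPM in r-CRMP2 libraries, most of it COL1A1. FAP, at 4 to 9 counts per library, did not pass the filter on low counts, so 6 of the 7 were tested. LUM (0.53) and COL1A2 (0.35) were higher, COL1A1 (-0.41) and PDGFRB (-0.41) lower, and with library size alone 0 were higher and 2 lower. All 5 blood and endothelial markers were at 0 in at least 1 library. Fewer cells of a type and less RNA per cell cannot be told apart in such bulk samples, and the part of these markers in the results was not tested.

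More of the members fell than rose with r-CRMP2. Of the 36, 17 (47.2%) were lower and 8 (22.2%) higher at an adjusted p under 0.05 (edgeR, quasi-likelihood), and 11 did not pass. Among all genes tested, 30.1% were lower and 28.2% higher. Changes below are log2 fold changes of r-CRMP2 over untreated cells, with the standard error (SE) after ±. The median log2 fold change of the members was -0.16, beside -0.03 over all genes. When libraries were scaled by size alone, 27 members (75%) were lower and 2 higher, against 52.1% and 13.4% of all genes, and lower members made up 93.1% of the members called in place of 68%. Among all genes called, that share was 79.6% in place of 51.6%. The groups did not overlap, with all 3 r-CRMP2 libraries below all 3 untreated ones, for 18 members (50%, against 33.3% of all genes). For 10 members (27.8%, against 30.9%) all 3 r-CRMP2 libraries were above. At the study's further threshold of 1 on the log2 scale, 4 members (11.1%) fell and 0 rose, against 8.86% and 5.12% of all genes, and the largest log2 fold change of any member was 0.81. DESeq2 and RLE size factors each gave 0 rises and 3 falls past that threshold, since BRCA1 was at -0.99 in both. Without r-CRMP2 replicate 2, only XRCC2 of the 4 remained past that threshold. In that library, 9 of the 17 members that fell had their lowest r-CRMP2 level. The same share was not computed for all genes, so whether it is particular to the members was not tested. Outside the members, PRKDC and CENPF also had their lowest r-CRMP2 level in that library, whereas AURKB had its highest there. The 5 largest falls were those of XRCC2, BRCA2, BRIP1, BRCA1 and PALB2.

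**Figure D1:**
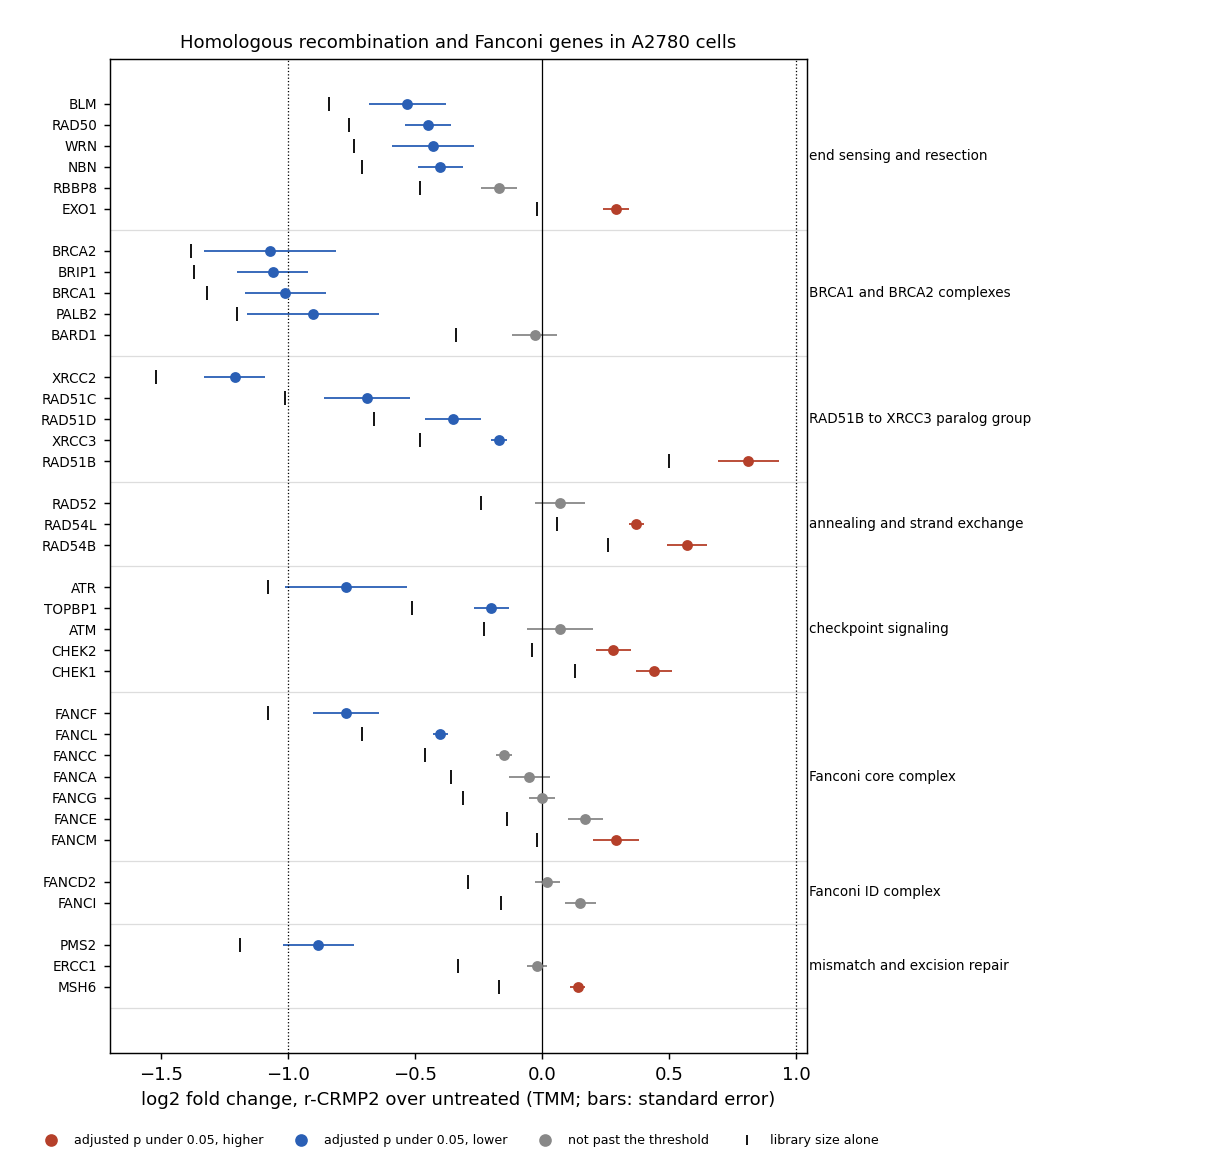
Log2 fold change of each of the 36 members (r-CRMP2 over untreated, horizontal axis), grouped by role, with the standard error as a bar and the color giving the call at an adjusted p under 0.05; black ticks give the value with library size alone. XRCC2, BRCA2, BRIP1 and BRCA1 lie left of -1, and RAD51B at 0.81 lies farthest to the right.

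For the 4 members past both thresholds, the 250 bases before their start sites are shown, with those of RAD54L, a member that rose and was taken by no stated rule. These 4 were picked by the threshold alone, and their share of the members was near that of all genes (11.1% against 8.86%). The sequences are RefSeq windows of GRCh38.p14, a later build than the hg19 of the deposited files, and run 5′ to 3′ on the strand of the gene. Of the 36 members, 32 had a window. Capitals mark every match, on either strand, to an E2F word (TTGGCGC as well as TTCCCGC, and likewise TTGCCGC along with TTCGCGC), to a CHR word (TTTGAA or its variant TTTAAA), known from cell cycle promoters, or to the HIF core word ACGTG; matches of different words may overlap. The windows are XRCC2 (chr7:152676142-152676391, minus strand), BRCA2 (chr13:32315258-32315507, plus strand), BRIP1 (chr17:61863529-61863778, minus strand), BRCA1 (chr17:43125365-43125614, minus strand) and RAD54L (chr1:46247438-46247687, plus strand).
XRCC2: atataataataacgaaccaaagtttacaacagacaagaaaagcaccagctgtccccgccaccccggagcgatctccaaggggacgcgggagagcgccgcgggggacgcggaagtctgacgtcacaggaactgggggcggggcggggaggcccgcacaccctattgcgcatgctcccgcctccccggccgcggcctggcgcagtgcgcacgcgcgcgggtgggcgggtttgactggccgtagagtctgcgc
BRCA2: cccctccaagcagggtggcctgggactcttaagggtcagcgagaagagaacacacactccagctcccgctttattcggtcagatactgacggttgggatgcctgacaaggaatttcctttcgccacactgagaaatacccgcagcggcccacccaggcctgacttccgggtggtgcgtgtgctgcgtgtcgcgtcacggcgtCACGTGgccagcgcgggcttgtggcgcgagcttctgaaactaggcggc
BRIP1: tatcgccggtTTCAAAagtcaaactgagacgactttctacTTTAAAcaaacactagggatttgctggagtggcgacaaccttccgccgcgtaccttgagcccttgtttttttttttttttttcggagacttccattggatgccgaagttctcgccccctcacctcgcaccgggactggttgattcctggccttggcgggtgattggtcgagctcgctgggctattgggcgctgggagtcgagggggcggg
BRCA1: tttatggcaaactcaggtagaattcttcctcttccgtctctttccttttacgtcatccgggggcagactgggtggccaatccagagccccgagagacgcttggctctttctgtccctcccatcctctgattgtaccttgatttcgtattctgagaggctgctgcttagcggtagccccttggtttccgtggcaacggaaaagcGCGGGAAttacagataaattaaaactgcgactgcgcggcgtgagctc
RAD54L: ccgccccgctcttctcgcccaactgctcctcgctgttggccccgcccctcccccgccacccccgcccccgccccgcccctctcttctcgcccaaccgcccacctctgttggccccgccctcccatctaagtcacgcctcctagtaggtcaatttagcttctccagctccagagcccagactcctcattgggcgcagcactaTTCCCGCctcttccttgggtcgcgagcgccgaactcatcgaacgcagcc
XRCC2 held none of these words. In BRCA2 the capitals mark ACGTG on both strands, in BRIP1 they mark a CHR word at 2 places, and in BRCA1 and RAD54L an E2F word. An E2F word was found in 12 of the 32 member windows (37.5%), against 17.1% of 10520 genes tested that had a window and 11% of 27305 windows in all. Among the members with a window, it was present in 6 of 15 that fell, 1 of 7 that rose and 5 of 10 that did not pass. The 1 that rose was RAD54L, so the window shown is not typical of the members that rose. The HIF core word was in 8 of 32 (25%), against 23.2% of genes tested and 18.6% of all windows, and a CHR word in 6 of 32 (18.8%), against 14.0% and 22.0%. These are matches of letters in a short window and do not show that a factor binds.

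BRCA1, BRCA2, BRIP1 and PALB2 fell to about the same extent, and BARD1 did not follow them. BRCA1 (chromosome 17, 41196312 to 41277500 in the deposited coordinates, minus strand), a ubiquitin ligase and tumor suppressor, stood at 54.3, 62.2 and 60.7 CPM in untreated replicates 1, 2 and 3 and at 33.4, 23.8 and 30.8 CPM in r-CRMP2 replicates 1, 2 and 3. Every r-CRMP2 library was below every untreated one. Its log2 fold change was -1.01 ± 0.16 (SE, edgeR adjusted p = 4.79e-08), a level 50.3% lower. BRCA2 (chromosome 13, 32889617 to 32973809), which acts on the trimmed end, was at 7.05, 7.21 and 6.07 CPM without and 4.12, 2.22 and 3.27 CPM with r-CRMP2. This is the least abundant of the 4 genes, and its r-CRMP2 values spread widely, with replicate 2 the lowest. The log2 fold change of BRCA2 was -1.07 ± 0.26 (SE, edgeR adjusted p = 5.9e-05). BRIP1 (chromosome 17, 59756547 to 59940920), the helicase that binds BRCA1 and is also the Fanconi gene FANCJ, went from 22.4, 23.2 and 22.6 CPM to 12.2, 8.95 and 11.4 CPM. The untreated values were tight, and the r-CRMP2 values lay near the 10.9 CPM mean with an SD of 1.70 (n = 3). BRIP1 had a log2 fold change of -1.06 ± 0.14 (SE, edgeR adjusted p = 7.25e-08). PALB2, the bridge between BRCA1 and BRCA2, fell from 13.7 ± 0.357 to 7.34 ± 2.44 CPM (SD, n = 3 per group), with a log2 fold change of -0.90 (edgeR adjusted p = 7.41e-05). BARD1, which pairs with BRCA1 through its RING domain, was at 16.6, 15.8 and 16.9 CPM without and 18, 15 and 15.2 CPM with r-CRMP2. These values overlapped, and BARD1 did not pass the test (log2 fold change -0.03, edgeR adjusted p = 0.78). Scaled by library size alone, BARD1 was called lower at -0.34, which equals the median over all genes in that setting.

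A ratio of the levels of 2 genes within a library does not depend on how libraries are scaled. The ratio of BRCA1 to BARD1, in TPM (counts per length of gene, scaled to a common total), was 2.44, 2.94 and 2.68 in untreated and 1.39, 1.19 and 1.52 in r-CRMP2 libraries. PALB2 to BARD1 went from 1.13 ± 0.017 to 0.611 ± 0.135 (SD, n = 3 per group). For both ratios the groups were apart, so the levels of these partners changed unequally whatever the scaling. The pairs were chosen with the fold changes known, and no test was made of them.

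**Figure D2:**
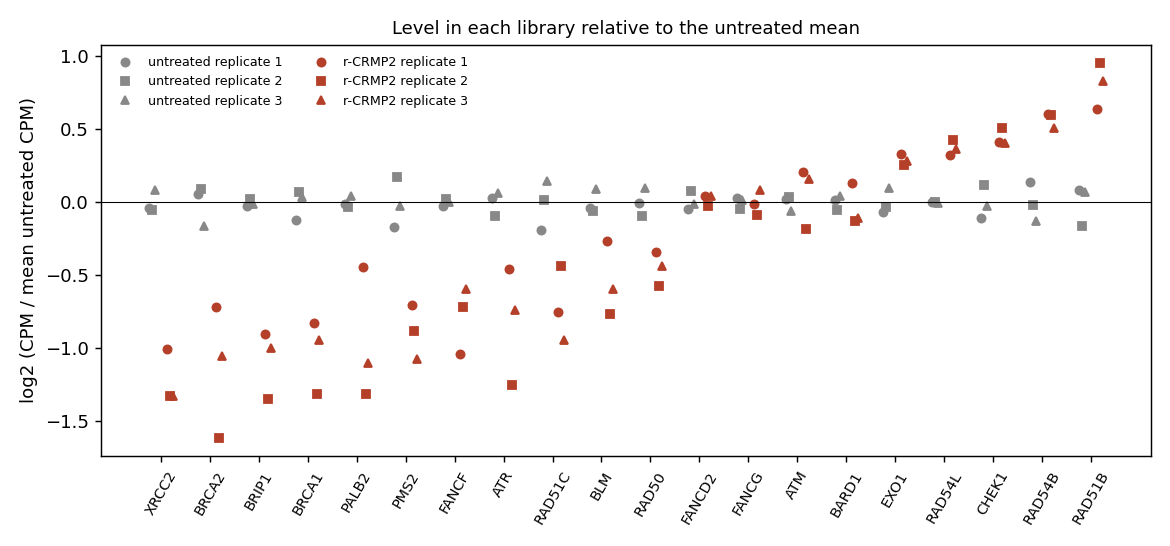
Level of 20 members in each library as log2 of CPM over the mean untreated CPM (vertical axis), with gray symbols for untreated and red for r-CRMP2 libraries and a symbol shape for each replicate number. XRCC2 through RAD50 lie below the untreated libraries in all 3 r-CRMP2 libraries, FANCD2, FANCG, ATM and BARD1 overlap them, and EXO1 through RAD51B lie above.

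RAD51B, RAD51C, RAD51D, XRCC2 and XRCC3, related proteins that assist strand exchange, changed in both directions. XRCC2 (chromosome 7, 152343583 to 152373250, minus strand) had the largest fall of all members. It was at 27.3, 27.1 and 29.8 CPM in untreated and 14.0, 11.2 and 11.2 CPM in r-CRMP2 libraries, with a log2 fold change of -1.21 ± 0.12 (SE, edgeR adjusted p = 5.65e-09). The lowest untreated library was far above the highest r-CRMP2 library, and XRCC2 stayed at or below -1.14 with every other normalization, filter or left-out library tried. RAD51B (chromosome 14, 68286496 to 69149835), a gene that spans 863340 bases, rose instead, from 4.21, 3.55 and 4.17 CPM to 6.18, 7.68 and 7.05 CPM. This was the largest rise of any member (log2 fold change 0.81 ± 0.12, edgeR adjusted p = 0.000149). By the deposited gene lengths, RAD51B was also the member with the lowest level per length, at 1.02 ± 0.0849 TPM (SD, n = 3) in untreated cells. That rank rests on its deposited length of 9470 bases, while its exons in the GENCODE annotation cover 4246 bases. RAD51C, which sits in both paralog complexes, fell from 11.2 ± 1.27 to 6.92 ± 1.25 CPM (SD, n = 3 per group), with a log2 fold change of -0.69 (edgeR adjusted p = 0.000313). RAD51D fell by 0.35 on the log2 scale (edgeR adjusted p = 0.0214) and XRCC3 by 0.17 (edgeR adjusted p = 0.0434), both close to the threshold. XRCC3 lost the call with RLE size factors and with DESeq2 (-0.15 in both), without the low-count filter (-0.18) and in 5 of the 6 fits that left out a library (-0.18 to -0.16). XRCC3 also shares 45.3% of its exonic bases with KLC1 in the GENCODE annotation. The unscaled KLC1 counts were 2086, 1950 and 2224 in untreated and 1417, 1215 and 1468 in r-CRMP2 libraries. RAD51B, RAD51C, RAD51D and XRCC2 form a complex known as BCDX2, and the TPM ratio of RAD51B to RAD51C in it went from 0.0685, 0.0502 and 0.0539 to 0.149, 0.148 and 0.193. XRCC2 to RAD51D went from 2.24 ± 0.244 to 1.24 ± 0.244 (SD, n = 3 per group).

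RAD54B and RAD54L, motor proteins of DNA strand exchange, were higher with r-CRMP2. RAD54B was at 24.2, 21.7 and 20.1 CPM in untreated and 33.4, 33.3 and 31.3 CPM in r-CRMP2 libraries, with a log2 fold change of 0.57 ± 0.08 (SE, edgeR adjusted p = 1.06e-05). Its exons share 63.3% of their bases with FSBP on the same strand in the GENCODE annotation, so reads from the shared stretches cannot be told apart. The unscaled FSBP counts were also higher, at 151 to 222 in untreated and 286 to 349 in r-CRMP2 libraries. RAD54L went from 43.8, 43.8 and 43.6 CPM to 54.8, 58.8 and 56.3 CPM (log2 fold change 0.37, edgeR adjusted p = 8.69e-05). RAD54L did not pass with library size alone (0.06, edgeR adjusted p = 0.43). RAD52, which anneals DNA strands, was at 7.12 ± 0.726 CPM in untreated and 7.45 ± 0.551 CPM in r-CRMP2 libraries (SD, n = 3 per group) and did not pass.

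Among the genes that sense and trim broken ends, 4 of 6 fell and EXO1 rose, where 30.1% of all genes tested fell and 28.2% rose. BLM, a RecQ helicase that works in trimming and in resolving joined DNA, was at 26.2, 25.8 and 28.6 CPM in untreated and 22.4, 15.8 and 17.8 CPM in r-CRMP2 libraries (log2 fold change -0.53 ± 0.15, edgeR adjusted p = 0.00027). RAD50, the coiled-coil protein of the MRN complex that binds ends first, went from 43.3, 40.7 and 46.5 CPM to 34.3, 29.3 and 32.1 CPM (log2 fold change -0.45, edgeR adjusted p = 8.78e-05). The exons of RAD50 share 90.6% of their bases with 2 other annotated genes, AC116366.3 and TH2LCRR. TH2LCRR had 0 to 2 counts per library. Counts of AC116366.3 were not examined, so how reads were divided between it and RAD50 was not tested. NBN, the signaling subunit of that complex, and WRN, another RecQ helicase, fell by 0.40 and 0.43 (edgeR adjusted p = 0.00032 and 0.00244). MRE11, the nuclease of the complex, was at 29.9 ± 2.09 CPM without and 30.8 ± 1.88 CPM with r-CRMP2 (SD, n = 3 per group) and did not pass (log2 fold change 0.04, edgeR adjusted p = 0.659). The TPM ratio of RAD50 to MRE11 was 1.23, 1.01 and 1.28 in untreated and 0.837, 0.77 and 0.883 in r-CRMP2 libraries, and that of NBN to MRE11 went from 1.48 ± 0.128 to 1.08 ± 0.0463 (SD, n = 3 per group). EXO1, the exonuclease that extends the trimming, was at 69.9, 71.6 and 78.3 CPM in untreated and 92.1, 87.6 and 89.0 CPM in r-CRMP2 libraries (log2 fold change 0.29, edgeR adjusted p = 0.000836). The rise of EXO1 was gone with library size alone (-0.02, edgeR adjusted p = 0.798). RBBP8, which encodes the trimming factor CtIP, had a log2 fold change of -0.17 and did not pass (edgeR adjusted p = 0.0681).

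In checkpoint signaling, the kinase ATR was lower and the kinase it activates, CHEK1, higher. ATR (chromosome 3, 142168077 to 142297668), which responds to stalled replication, was at 32.8, 30.2 and 33.6 CPM in untreated and 23.5, 13.5 and 19.3 CPM in r-CRMP2 libraries. The groups did not overlap, but the r-CRMP2 values spread widely (SD 5.02 CPM, n = 3), with replicate 2 lowest. The log2 fold change of ATR was -0.77 ± 0.24 (SE, edgeR adjusted p = 3.44e-05), and -0.58 without that replicate. CHEK1 (chromosome 11, 125495031 to 125546151) went from 40.0, 46.7 and 42.3 CPM to 57.4, 61.1 and 57.1 CPM, a log2 fold change of 0.44 ± 0.07 (SE, edgeR adjusted p = 3.47e-05). CHEK2, the effector kinase of ATM, was at 16.9, 17.7 and 16.1 CPM in untreated and 19.2, 22.0 and 20.3 CPM in r-CRMP2 libraries (log2 fold change 0.28, edgeR adjusted p = 0.013). Neither kinase was called with library size alone (0.13 for CHEK1 and -0.04 for CHEK2). TOPBP1, the activator of ATR, fell by 0.20 on the log2 scale (edgeR adjusted p = 0.0184). ATM, which responds to DNA breaks, was at 90.6, 91.5 and 85.7 CPM in untreated and 103, 78.8 and 100 CPM in r-CRMP2 libraries and did not pass (log2 fold change 0.07, edgeR adjusted p = 0.459). Here r-CRMP2 replicate 2 lay below the untreated libraries and the others above, and without it ATM was called higher at 0.19. The TPM ratio of ATR to ATM was 0.577, 0.526 and 0.624 in untreated and 0.365, 0.273 and 0.307 in r-CRMP2 libraries. That of CHEK1 to ATR went from 2.25 ± 0.299 to 5.56 ± 1.82 (SD, n = 3 per group).

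**Figure D3:**
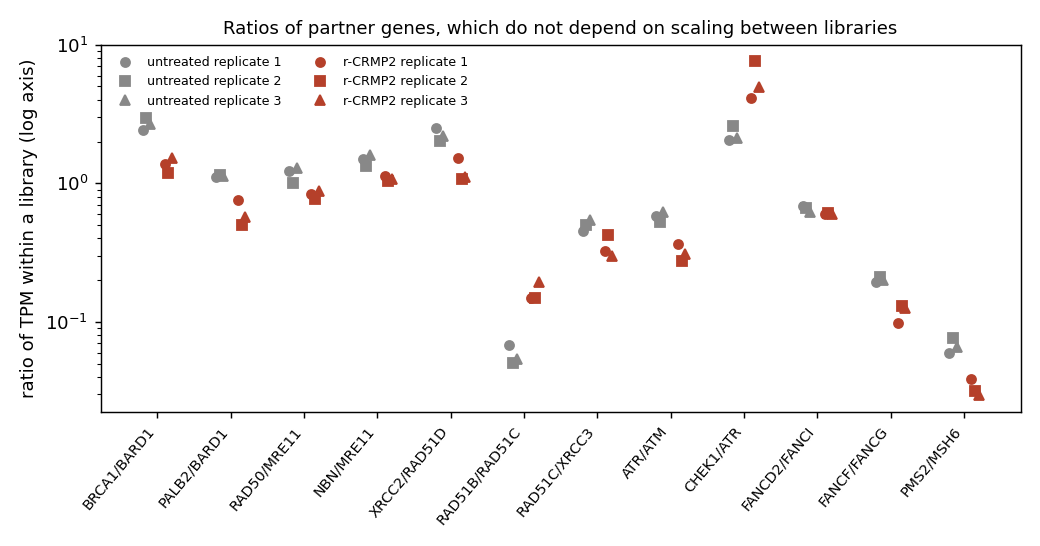
TPM ratio of 12 pairs of members, or of a member and MRE11, that act together (log vertical axis) in each untreated (gray) and r-CRMP2 (red) library, with a symbol shape for each replicate number. The groups are apart for every pair, from FANCD2/FANCI, where the means are 0.659 and 0.603, to RAD51B/RAD51C, where they are 0.0575 and 0.163.

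Of the 7 Fanconi core genes, FANCF and FANCL fell, FANCM was called higher and 4 did not pass, and neither target of the complex passed. Over all genes tested, 30.1% were lower and 28.2% higher. FANCF, an adaptor of the core complex encoded in a gene without introns in the deposited table (chromosome 11, 22644079 to 22647387, 3309 bases), was at 11.9, 12.3 and 12.1 CPM in untreated and 5.90, 7.38 and 8.01 CPM in r-CRMP2 libraries. Its log2 fold change was -0.77 ± 0.13 (SE, edgeR adjusted p = 3.4e-05). FANCL, the ubiquitin ligase of the complex, fell from 15.4, 15.3 and 16.3 CPM to 12.0, 12.0 and 11.6 CPM (log2 fold change -0.40, edgeR adjusted p = 0.00169). FANCL shares 26.7% of its exonic bases with other genes, VRK2 among them, and the unscaled VRK2 counts were 313 to 360 in untreated and 178 to 211 in r-CRMP2 libraries. FANCM, the translocase that anchors the complex to DNA, was at 8.88, 9.13 and 7.97 CPM without and 10.6, 9.71 and 11.3 CPM with r-CRMP2. It was called higher at the edge of the threshold (log2 fold change 0.29, edgeR adjusted p = 0.0453), and lost the call with library size alone (-0.02), with DESeq2 (0.31) and in 5 of the 6 fits that left out a library (0.23 to 0.32). The other 4 core genes, FANCA, FANCC, FANCE and FANCG, had log2 fold changes of -0.05, -0.15, 0.17 and 0.00 and did not pass. With library size alone, however, 5 of the 7 core genes were lower, beside 52.1% of all genes. FANCD2 stood at 118, 129 and 121 CPM in untreated and 126, 120 and 126 CPM in r-CRMP2 libraries, with a log2 fold change of 0.02 ± 0.05 (SE, edgeR adjusted p = 0.806). FANCD2 was also lower with library size alone, at -0.29. FANCI, the other subunit of the clamp that the core complex ubiquitinates, had a log2 fold change of 0.15 (edgeR adjusted p = 0.0592), and it was called higher with DESeq2 (0.17) and lower with library size alone (-0.16).

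Of the 3 mismatch and excision repair genes, PMS2 fell and MSH6 was near the threshold. PMS2, the nuclease of the MutL complex, went from 10.6, 13.4 and 11.7 CPM to 7.30, 6.47 and 5.66 CPM (log2 fold change -0.88 ± 0.14, edgeR adjusted p = 1.45e-05). Because PMS2 has close pseudogenes, its reads are uncertain. The 10 other listed genes whose names start with PMS2 summed to 472, 449 and 538 unscaled counts in untreated and 463, 449 and 473 in r-CRMP2 libraries. PMS2 itself had 294, 329 and 321 against 156, 128 and 130 unscaled counts. The TMM-corrected totals were smaller in the r-CRMP2 libraries, so an equal count there is a higher CPM. On that scale the related genes did not fall with PMS2, and how reads were divided between them was not tested. MSH6, which recognizes mismatches, stood between 141 and 143 CPM in the 3 untreated libraries and at 153, 164 and 154 CPM in r-CRMP2 libraries (log2 fold change 0.14, edgeR adjusted p = 0.0481). Scaled by library size alone, MSH6 was called lower (-0.17, edgeR adjusted p = 0.0145), and 5 of the 6 fits that left out a library did not call it (0.12 to 0.16). ERCC1, a subunit of an excision nuclease, had a log2 fold change of -0.02 and did not pass (edgeR adjusted p = 0.832).

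Levels per length spanned a wide range among the members. In untreated cells MSH6 (77.4 ± 1.01 TPM), FANCI (73.8 ± 5.79 TPM) and EXO1 (51.6 ± 3.49 TPM) were the most abundant. The least abundant were RAD51B (1.02 ± 0.0849 TPM), BRCA2 (1.45 ± 0.133 TPM) and FANCM (2.95 ± 0.213 TPM) (SD, n = 3 for each). This order rests on the deposited gene lengths. TPM carry no TMM correction, and MSH6, for example, was at 68.1 ± 0.981 TPM with r-CRMP2 (SD, n = 3), below its untreated level on that scale. MSH6 and FANCI, neighbors at the top of this order, differed by less than the spread of FANCI. Across the 36 members, which share the same 6 libraries, the rank correlation of the log2 fold change with the untreated TPM was 0.239, and over 12803 protein-coding genes tested it was 0.283. With the genomic span it was -0.0466 among the members and -0.000781 among the protein-coding genes. The members spanned a median of 69060.5 bases, against 23445 for all protein-coding genes listed. Of the 36 members, 22 had a span that overlapped another listed gene in the deposited coordinates, introns included. Without a stated strand setting, reads from stretches where exons overlap cannot be told apart. In the GENCODE annotation, 7 of the 36 members shared more than 20% of their exonic bases with another gene: RAD50, XRCC3, RAD54B, FANCA, FANCL, MSH6 and ERCC1. WRN, BRCA2, RAD51B, ATR, CHEK1 and FANCC, whose spans overlapped another gene, shared 0% of theirs. Of the 14 members that overlapped none, 8 were lower and 3 higher, with a median log2 fold change of -0.30. Among all genes tested, overlapping or not, 30.1% were lower and 28.2% higher, with a median of -0.03. The shares among all genes that overlap none were not computed.

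Other genes of repair, taken from hand-written lists, changed in both directions as well. Of 20 further recombination genes tested, 9 were lower and 3 higher, among them GEN1, a nuclease that cuts joined DNA molecules, which fell from 12.8 to 3.09 CPM (log2 fold change -2.05, edgeR adjusted p = 8.72e-10), and SWSAP1 (-1.35, edgeR adjusted p = 0.000456). Of 14 further Fanconi pathway genes, 5 were lower, CENPS (-0.84) and FAAP24 (-0.68) most, and 5 higher, FANCB (0.68) most. Among 16 further checkpoint genes, 6 were lower and 5 higher. ETAA1, which activates ATR independently of TOPBP1, fell (log2 fold change -1.31, edgeR adjusted p = 3.1e-08), and WEE1, a kinase that holds back mitosis, rose (1.27, edgeR adjusted p = 6.51e-12). Of 16 end joining and 53BP1 genes, 6 were lower, DCLRE1C (-0.86) and PAXIP1 (-0.76) most, and 3 higher. In the BRCA1-A complex BRCC3 fell (-0.76) and BABAM1 rose (0.24), of 5 tested. Of 13 further mismatch and excision repair genes, 8 were lower, ERCC4 (-1.18) and XPC (-0.87) most, and 2 higher. Scaled by library size alone, 15 recombination, 9 Fanconi, 11 checkpoint, 11 end joining, 3 BRCA1-A and 11 mismatch and excision genes were lower, and 0, 3, 2, 1, 0 and 0 were higher. Among all genes tested, 52.1% were lower and 13.4% higher in that setting, and 30.1% and 28.2% with TMM. Whether any of these lists differs from all genes was not tested.

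Genes of DNA replication and mitosis, which like recombination are used in dividing cells, were counted from lists as well. Of 29 replication and S phase genes, 10 were lower and 9 higher, with RRM2, a subunit of ribonucleotide reductase, at 1.08 and GINS4 at -0.82 on the log2 scale. Of 20 mitotic genes, 18 were higher and 2 lower, with a median log2 fold change of 0.55. AURKB, the kinase of the chromosomal passenger complex, rose from 55.9 to 117 CPM, and CDK1 from 82.3 to 150 CPM (log2 fold changes 1.07 and 0.86, edgeR adjusted p = 2.8e-10 and 2.4e-09). When scaled by library size alone, 12 mitotic genes were higher and 2 lower, and 3 replication genes higher and 21 lower. Of all genes tested, 13.4% were higher and 52.1% lower in that setting, and 28.2% and 30.1% with TMM. A hypoxia response list had all of its 12 genes called higher, between 0.77 and 4.43 on the log2 scale, ANKRD37 (4.43) and ADM (3.70) leading, and all 12 stayed higher with library size alone. The part of these genes in the results on the members was not tested.

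**Figure D4:**
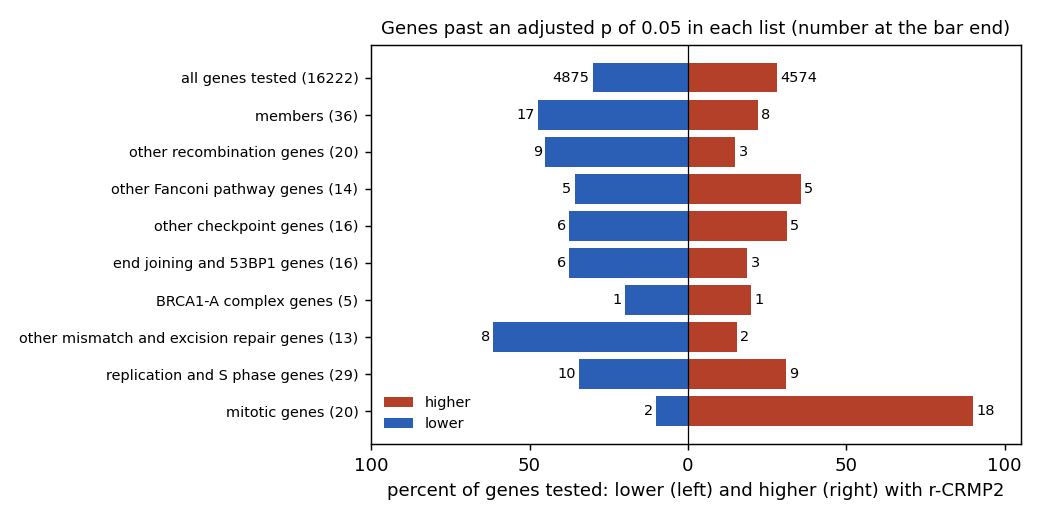
Percent of the genes tested in each list that were lower (left) or higher (right) with r-CRMP2 at an adjusted p under 0.05, with the number tested after the list's name and the number called at the end of each bar. Of the 36 members 17 are lower and 8 higher, and of 20 mitotic genes 2 are lower and 18 higher.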

How the data were processed

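Polyadenylated RNA of 6 A2780 cultures was sequenced. Per the submitters' processing notes, HISAT2 and hg19 were used; the counting tool, annotation and strand setting are not given in the sources used here. The authors deposited, for each library, unnormalized counts and TPM values on 44591 genes. The TPM follow from the counts and the deposited gene lengths to within 4.72e-06, and were used only for levels per length and for ratios of genes.

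The fits ran in R 4.3.3 with edgeR 4.0.16 and limma 3.58.1: genes were filtered by filterByExpr, libraries scaled by TMM, and r-CRMP2 set against untreated cells by glmQLFTest, with Benjamini-Hochberg adjustment over all 16222 genes tested. "Rose" and "fell" mean an adjusted p under 0.05. Standard errors come from the spread of log2 CPM (prior count 2) between the 3 replicates of each group. With 3 libraries per group, only counting and replicate error are covered. The test was checked on simulated counts with equal numbers of rises and falls and no shift in composition, so that check does not bear on the choice of scaling.

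The members, gene lists and gene pairs were chosen with earlier results of these data known. The rule for values in every library was: in each role group the 2 members with the largest absolute log2 fold change past the threshold, every member past both thresholds, and members called with TMM whose call was lost or turned with library size alone; BARD1, ATM, FANCD2 and the overlapping or related genes were added after their values were seen. From each further list, the 2 largest changes past the threshold were named, and FANCB as the largest rise was added. When a gene had several RefSeq promoter windows, the one with most GENCODE v29 transcript starts within 100 bases was taken, and the first on ties. RAD51B, counted among the windows with a CHR word, had 2 windows and 0 such starts near the one taken. The counts and log2 fold changes of the members were computed again with scaling by library size alone, with RLE factors, with DESeq2 1.42.0, without the filter on low counts, with a minimum of 10 counts per sample, with a replicate block, against a fold change of 2, leaving out each library, and leaving out members that overlap another gene. The further lists were computed again with library size alone, and the TPM ratios, promoter words and correlations with no alternative.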

Additional observations from a re-analysis of the deposited data

How the results depend on the processing

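When libraries were scaled by size and not by TMM, the 8 members higher and 17 lower became 2 and 27, the 4 past both thresholds became 9, the median log2 fold change of the members went from -0.16 to -0.47, and the 4574 genes higher and 4875 lower became 2171 and 8449. Against a fold change of 2 (edgeR's glmTreat), 0 members were higher and 0 lower, so 0 were past both thresholds, although 1 had an unadjusted p under 0.05, and 369 genes were higher and 467 lower over all; DESeq2, at no such threshold, gave 8 members higher and 16 lower. Leaving out each library gave 5 to 9 members higher, 14 to 18 lower, 1 to 5 past both thresholds, and a median from -0.18 to -0.13. The count of members higher was lowest without untreated replicate 3 (5, with a median of -0.13), and without r-CRMP2 replicate 2 only XRCC2 was past both thresholds. The 14 members that overlap no other listed gene gave 3 higher, 8 lower, 2 past both thresholds and a median of -0.30. The same counts were not made for all genes that overlap none, and the cause of the lower median was not tested.

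For single members, the sign turned with library size alone for EXO1 (-0.02), RAD52 (-0.24), ATM (-0.23), CHEK2 (-0.04), FANCE (-0.14), FANCM (-0.02), FANCD2 (-0.29), FANCI (-0.16), MSH6 (-0.17) and MRE11 (-0.27). The value lay at 0.02 for FANCG and 0.00 for ERCC1 both with RLE size factors and with DESeq2. In fits that left out 1 library, values of genes near 0 changed sign: BARD1 ranged from -0.11 to 0.02, FANCA from -0.11 to 0.02, FANCG from -0.04 to 0.05, FANCD2 from -0.01 to 0.06 and ERCC1 from -0.04 to 0.02. XRCC3 was not called with RLE size factors or DESeq2 (-0.15 in both) or without the low-count filter (-0.18), and FANCM (0.28 and 0.27) and MSH6 (0.13 in both) were not called without that filter or with at least 10 counts in every sample. Single libraries also decided calls: RAD51D was lost without untreated replicate 2 (-0.30) or 3 (-0.29) or r-CRMP2 replicate 1 (-0.29), TOPBP1 without untreated replicate 2 (-0.19) or 3 (-0.18) or r-CRMP2 replicate 2 (-0.13), and CHEK2 without untreated replicate 3 (0.24), while RBBP8 was gained without untreated replicate 1 (-0.23), FANCE without r-CRMP2 replicate 1 (0.23), and ATM (0.19) and FANCI (0.18) without r-CRMP2 replicate 2. None of the falls of BRCA1, BRCA2, BRIP1, PALB2, XRCC2, RAD51C, ATR, FANCF, PMS2, BLM, RAD50, NBN, WRN and FANCL was lost in any of these fits other than that against a fold change of 2.

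With the replicate block, 6 members were higher and 16 lower, 4 were past both thresholds, and 4456 genes were higher and 4774 lower; XRCC3, FANCM and MSH6 lost the call. Deviations of same-numbered libraries correlated at -0.0209, 0.0038 and -0.0252 across genes, so the numbers gave no sign of pairing.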
